A study of Mus musculus with 24 samples.

Results

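The recurrent tumours of this series are 9 of its 24 arrays, taken as those whose tissue label reads recurrent tumour, and the question here is how much and in which genes they differ from each other. For each gene the probe set brightest on average over the 24 arrays was used, and 12394 genes were ranked by their standard deviation (SD) over the 9 arrays. No tumour was selected on its measured values. The most variable genes were, however, chosen by their SD, so their levels are given as a description with no test.

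Anaplastic thyroid cancer is an undifferentiated tumour in which thyroid follicular cells have lost much of their hormone-making programme, and BRAF is a kinase of the MAPK cascade that drives many thyroid cancers. Met is a receptor tyrosine kinase and Hgf, made largely by mesenchymal cells, is its ligand. A mouse thyroid lies against the trachea, the parathyroid glands and the strap muscles, and a dissected gland can carry these tissues. In RNA from whole tissue, fewer cells of a type and less RNA per cell cannot be told apart.

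Mouse RNA was hybridised to Affymetrix Mouse430A_2 arrays, and the deposited values are log2 intensities, so that a difference of 1 is a 2-fold difference. The series title concerns mouse anaplastic cancers that resist BRAF inactivation. The other groups are 5 anaplastic thyroid cancers (ATC), 4 papillary thyroid cancers (PTC, a differentiated type) and 6 pools of normal thyroid, of which 4 have WT and 2 have Cre in their titles. No genotype, agent, age or time is named for any single recurrent tumour. Arrays are numbered 1 to 9 in the order of their records. Whether each tumour is from its own animal is not stated in the labels, so p-values measure only the spread between these samples, which may be technical.

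Recurrent arrays 1 to 3 carry titles of a JK series and arrays 4 to 9 carry bare numbers, while all 4 PTC arrays have JK titles. Over all probe sets, the SD of values was 2.23 to 2.43 on these 3 arrays and 2.47 to 2.50 on the 6 others. The difference of Gapdh signal between 3' and 5' probes, a reading of RNA integrity and labelling, was 0.36 to 1.07 on the former and -0.02 to 0.17 on the latter. Medians of all arrays lay between 7.38 and 7.58, and among 276 pairs of arrays 0 were identical.

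Thyroid identity was low in most of the tumours. Thyroglobulin, Tg, the precursor of thyroid hormone, was 14.18 on recurrent 4 and 11.31 on recurrent 1, and 4.61 to 5.86 on the other 7 arrays, against 14.80 to 14.96 in normal pools. Pax8, a transcription factor of thyroid follicular cells, was 7.70 on recurrent 4 and 4.76 to 5.77 on the other 8, all below the normal range of 11.12 to 11.98. Nkx2-1, another such factor, lay between 5.07 and 6.23, against 6.11 to 6.68 in normal pools. These ranges overlap and are low in normal pools too, so Nkx2-1 cannot show a loss. Dio1, a deiodinase that activates thyroid hormone, was 9.38 on recurrent 4 and at most 5.70 elsewhere. The neuropeptide Grp, which reached 13.51 in normal pools, was 9.47 on recurrent 4 and 3.70 to 4.73 on the others. The mean of 12 thyroid differentiation genes was 1.74 above the 9-array mean on recurrent 4, and the next, recurrent 1, stood at 0.59. Of the 12 genes, 11 lay above their own mean on recurrent 4, but 4 were highest there and 5 on recurrent 3. Slc5a8, also of this list, was 8.99 on recurrent 6 and 4.47 to 7.31 elsewhere, against 9.21 to 10.50 in normal pools.

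The 9 tumours lay farther from their group mean than the arrays of the other groups did from theirs. For each array the root mean square deviation from the mean of its group over 12394 genes was taken. It was 0.543, 0.978, 0.917, 0.743, 0.873, 1.146, 0.952, 0.595 and 0.581 on recurrent 1 to 9, with a mean of 0.814 ± 0.210 (SD, n = 9). ATC arrays lay at 0.469 ± 0.063 (SD, n = 5), PTC at 0.247 ± 0.044 (SD, n = 4) and normal pools at 0.293 ± 0.093 (SD, n = 6). The lowest recurrent value, on recurrent 1, equalled the highest ATC value at 0.543, and the other 8 lay above every ATC array. The recurrent mean was higher by 0.345 than ATC (two-sided exact permutation p = 0.002, adjusted over 3 tests 0.0028), by 0.567 than PTC (exact p = 0.0028, adjusted 0.0028) and by 0.521 than normal pools (exact p = 0.0004, adjusted 0.0012), where the unadjusted p of these last tests is the smallest that groups of these sizes allow. Within the bare-number titles, which hold 6 recurrent and 3 ATC arrays, the difference from ATC was 0.376 (exact permutation p = 0.0238, the smallest possible there). Without the genes of 6 lists that mark muscle, stratified epithelium, airway, parathyroid and C-cells, fat and cartilage, an alternative chosen after seeing the data, it was 0.337. Normal arrays are pools, so their spread is not that of single glands.

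**Figure D1:**
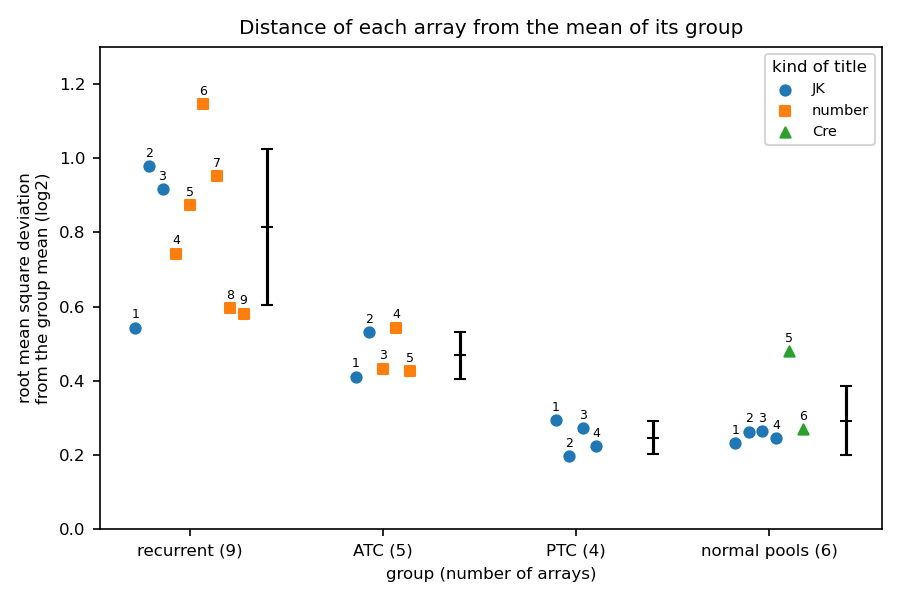
Root mean square deviation of each array from the mean of its own group (vertical axis, log2 units) for the 4 groups (horizontal axis), with 1 numbered point per array, shape and colour giving the kind of title, and the black bar the group mean with its SD. The recurrent arrays run from 0.543 to 1.146 and ATC arrays reach 0.543.

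Recurrent 6 was the farthest from the rest, followed by recurrent 2, 7 and 3. Correlations over all genes between 2 recurrent arrays ran from 0.781 to 0.963 (36 pairs, median 0.886), and between 2 ATC arrays from 0.94 to 0.977 (10 pairs, median 0.963). The closest pair was recurrent 8 and 9 (0.963), the nearest to recurrent 1 was 8 (0.956), recurrent 4 and 5 were nearest to each other (0.943), and recurrent 6 reached 0.865 at most with any other. Recurrent 9 correlated at 0.957 with ATC 4. The median correlation of recurrent 6 was 0.878 with normal pools, 0.86 with PTC, 0.843 with ATC and 0.834 with the other recurrent tumours. The points of these correlations are genes, which are not independent.

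Gene by gene, the median SD was 0.517 in recurrent tumours, 0.271 in ATC, 0.144 in PTC and 0.185 in normal pools, and 88.5% of genes had a higher SD in recurrent tumours than in ATC. An SD of at least 1 was reached by 2203 genes (17.8%) and of at least 2 by 345 genes (2.78%), against 67 genes with an SD of at least 2 in ATC. Of the 345 genes, 48 (13.9%) also reached 2 in ATC, and these are 71.6% of the 67. In a limma test of absolute deviations from the group mean, 0 of 12394 genes (0.0%) were called more variable in recurrent tumours than in ATC and 1 (0.00807%) less variable, with 1547 genes (12.5%) at an unadjusted p under 0.05. The 1 gene is Tff1, a secreted mucosal peptide (limma adjusted p = 0.00677), and in simulated data all 2 calls of this test were unchanged genes. The simulation recovered 0% of genes whose SD was raised 4-fold and 0% of those raised 8-fold. On log2 of the deviations, a scale chosen after seeing the data, limma called 458 genes (3.7%) more variable and 13 (0.105%) less, and in the simulation 17.8% of its calls were unchanged genes. Hgf was among the 458 (limma adjusted p = 0.0304), and Met (0.257) and Braf (0.838) were not.

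Of the 40 genes with the highest SD, 19 belong to the lists used here, 9 of them of skeletal muscle, 4 of stratified and cornified epithelium, 3 of the airway, 2 of parathyroid and C-cells, and Tg. The first by SD was Bpifa1, a protein secreted by airway epithelium (SD 5.03), the next Pth, parathyroid hormone (4.56), Scgb1a1, the club cell secretoglobin (3.98), Mt4, a metallothionein of stratified epithelium (3.93), and Myh1, a fast skeletal myosin (3.90). The gene at rank 40 had an SD of 3.214 and the gene at rank 41 one of 3.201. Of the 40, 21 also had an SD of at least 2 among the 5 ATC arrays. Of 14 other probe sets that read 10 of these genes, 2 correlated with the one used at r under 0.5 over the 9 arrays, 1 each for Myh1 and Sln, and both stayed at or below 5.99.

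**Figure D2:**
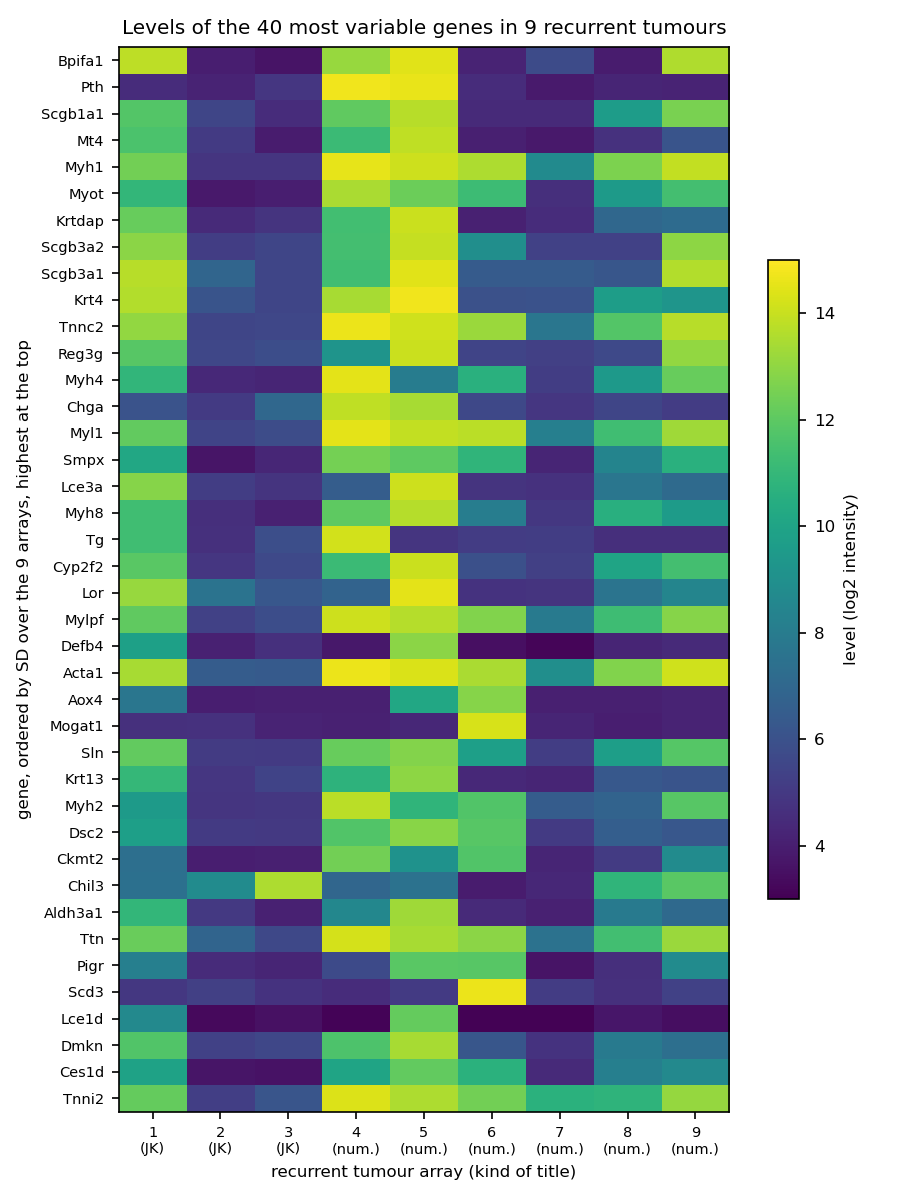
Levels (colour, log2 intensity) of the 40 genes with the highest SD (rows, highest SD at the top) on the 9 recurrent arrays (columns, with JK or a bare number, num., as the kind of title). Muscle genes such as Myh1 are dark on recurrent 2 and 3, the airway gene Bpifa1 is bright on 1, 4, 5 and 9, and Mogat1 is bright on 6 alone.

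Promoters of 4 of these genes are shown because each stands for a different block of tumours: Bpifa1 for airway, Pth for parathyroid, Myh1 for muscle and Mogat1 for recurrent 6. They run from 250 bases before the gene start to 50 bases after it, 5' to 3', from RefSeq on GRCm38.p6, and capitals mark TATAAA or, on the other strand, TTTATA, the core of the TATA box.
Bpifa1, chr2:154142630-154142929, plus strand: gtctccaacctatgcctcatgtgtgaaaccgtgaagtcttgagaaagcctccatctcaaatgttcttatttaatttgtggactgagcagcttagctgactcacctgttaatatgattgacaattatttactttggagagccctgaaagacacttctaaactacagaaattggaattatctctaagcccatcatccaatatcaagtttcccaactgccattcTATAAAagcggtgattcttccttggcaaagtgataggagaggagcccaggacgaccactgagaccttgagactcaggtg
Pth, chr7:113388524-113388823, minus strand: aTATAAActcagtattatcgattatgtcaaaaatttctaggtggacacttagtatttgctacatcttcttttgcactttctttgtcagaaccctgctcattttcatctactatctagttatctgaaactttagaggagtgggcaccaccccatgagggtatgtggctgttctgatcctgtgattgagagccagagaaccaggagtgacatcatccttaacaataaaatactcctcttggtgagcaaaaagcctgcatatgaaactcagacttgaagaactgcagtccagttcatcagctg
Myh1, chr11:67199852-67200151, plus strand: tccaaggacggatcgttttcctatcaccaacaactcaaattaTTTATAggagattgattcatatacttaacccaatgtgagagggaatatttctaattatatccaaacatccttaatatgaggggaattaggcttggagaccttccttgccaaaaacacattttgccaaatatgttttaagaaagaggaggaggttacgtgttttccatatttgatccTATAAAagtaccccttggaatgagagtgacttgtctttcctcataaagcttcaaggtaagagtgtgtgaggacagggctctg
Mogat1, chr1:78510810-78511109, plus strand: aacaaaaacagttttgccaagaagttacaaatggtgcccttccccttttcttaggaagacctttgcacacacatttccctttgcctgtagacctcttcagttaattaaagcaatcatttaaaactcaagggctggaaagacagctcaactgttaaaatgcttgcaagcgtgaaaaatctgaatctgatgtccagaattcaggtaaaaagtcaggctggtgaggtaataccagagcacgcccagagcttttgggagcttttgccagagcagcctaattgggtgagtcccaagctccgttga

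The Bpifa1 promoter holds TATAAA 1 time, that of Pth 1 time and that of Myh1 2 times over both strands, and that of Mogat1 holds it 0 times. Over 9888 measured genes with a promoter in the table, 11.9% held TATAAA on either strand. Among the 40 most variable genes 29 had a promoter there, and 16 of them (55.2%) held it. On the gene's own strand and beginning 40 to 20 bases before the start, it was found in 3.09% of the 9888 promoters and in 8 of the 29 (27.6%). A match to these letters is a description of the window and not a measured binding site.

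Skeletal muscle genes split the tumours most sharply. Acta1, the actin of skeletal muscle, was 6.50 on recurrent 2, 6.40 on 3 and 8.94 on 7, and 12.71 to 14.66 on the other 6 arrays. Myh1 was 4.85, 4.86 and 8.76 on recurrent 2, 3 and 7 and 12.44 to 14.54 elsewhere. Tnnc2, the calcium sensor of fast fibres, was 5.50, 5.56 and 7.73 on the same 3 arrays and 11.80 to 14.63 elsewhere. In ATC and in normal pools Acta1 was 10.84 to 13.90 and 10.35 to 12.99, so no array of these groups was as low as recurrent 2, 3 or 7. Myot, a protein of the muscle Z disc, ran from 3.81 on recurrent 2 to 13.47 on recurrent 4. All 20 measured muscle genes had an SD of at least 2 (2.78% of all genes did). All 20 were highest on recurrent 4, and 0 of 20 were above their own mean on recurrent 2, 3 or 7. The list mean lay at -4.29, -3.89 and -2.78 on recurrent 2, 3 and 7 and at 3.92 on recurrent 4. Recurrent 8 lay between, with 9 of 20 genes above their own mean and a list mean of -0.04. Unlike Acta1, Myh1 and Tnnc2, the muscle genes Ckmt2 and Myh2 were low on recurrent 8 (5.07 and 6.84), near recurrent 7 (4.24 and 6.48). The fast myosin Myh4 set recurrent 5 apart from the other muscle-rich arrays, at 8.03 against 14.52 on recurrent 4 and 12.23 on recurrent 9. Of the 20 genes, 0 were called more variable than in ATC by limma and 3 on the log2 scale of deviations (0.0% and 3.7% of all genes were).

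Airway genes were high in a different set of tumours. Bpifa1 was 13.79, 13.13, 14.44 and 13.59 on recurrent 1, 4, 5 and 9 and 3.61 to 5.72 on the other 5, with no value between. Scgb3a1, a secretoglobin of airway secretory cells, was 13.72, 11.33, 14.48 and 13.62 on those 4 arrays and 5.49 to 6.93 elsewhere. Scgb3a2, another secretoglobin, was 11.41 to 13.96 on the 4 arrays, 8.91 on recurrent 6 and 5.20 to 5.51 on the rest. Reg3g, an antimicrobial lectin of mucosal epithelia, was 9.19 to 14.06 on the 4 arrays and 5.25 to 5.82 on the other 5. On recurrent 8 the airway genes disagreed. Scgb1a1 was 9.65 there, against 11.79 to 13.73 on the 4 arrays, while Bpifa1 was 3.91. The club cell cytochrome Cyp2f2 was 11.17 to 14.05 on the 4 arrays and 4.91 to 5.94 on recurrent 2, 3, 6 and 7. Normal pools also carried airway transcripts, with Bpifa1 at 10.96 to 14.17 and Cyp2f2 at 9.03 to 12.42, and in ATC Bpifa1 ran from 4.44 to 14.03. All 12 measured airway and surfactant genes lay above their own mean on recurrent 1, 11 on recurrent 5 and 9 on recurrent 9. On recurrent 8 it was 8 of 12 and on recurrent 4 it was 5 of 12.

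Stratified epithelium formed an overlapping block in recurrent 1, 4 and 5. Krt4, a keratin of stratified mucosa such as the oesophagus, was 13.64, 13.45 and 14.72 on these arrays, 9.66 and 9.24 on recurrent 8 and 9, and 5.49 to 6.12 on the other 4. Its partner Krt13 was 11.01, 10.76 and 12.96 on recurrent 1, 4 and 5 and 4.24 to 6.32 elsewhere. Krtdap, a secreted protein of differentiating keratinocytes, was 12.19, 11.37 and 14.04 on those 3 and 4.11 to 7.19 elsewhere. Some genes of the cornified layer were high on recurrent 1 and 5 and lower on recurrent 4. Lor, the main protein of the cornified envelope, was 13.17 and 14.50 on recurrent 1 and 5 and 6.81 on recurrent 4. Lce3a, another envelope protein, was 12.83 and 14.08 on recurrent 1 and 5 and 6.56 on recurrent 4. The envelope proteins Sprr1a and Sprr1b were not lower there, at 11.57 and 9.43 on recurrent 4, 12.64 and 9.47 on 5, and 10.08 and 4.06 on 1. The basal keratins Krt5 and Krt14 were instead highest on recurrent 4 (12.30 and 13.82) and 5 (11.99 and 12.41), and lower on recurrent 1 (9.47 and 10.68). Krt16, an injury keratin, was 11.34 on recurrent 4 and 5.21 to 6.50 on the others. Normal pools held Krt4 at 5.84 to 6.65 and PTC at 5.65 to 6.07, below recurrent 1, 4, 5, 8 and 9, while ATC reached 12.74. Lce and Sprr genes have near-identical copies, so which member of a family was read is uncertain.

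Of the parathyroid and C-cell genes, Pth and Chga were high on recurrent 4 and 5. Pth was 14.76 and 14.58 there and 3.86 to 4.91 on the other 7 arrays. Normal pools had it at 14.42 to 14.78, so these levels are near the top of the measured scale in both. Chga, chromogranin A of endocrine granules, was 13.87 and 13.44 on recurrent 4 and 5 and 4.91 to 6.99 on the other 7. The other genes of this list did not follow as a set. Of 10 measured, 7 lay above their own mean on recurrent 4, 5 on recurrent 5, 7 on recurrent 3 and 6 on recurrent 1. Calcb was highest on recurrent 9 (10.57) and Ddc on recurrent 7 (9.84). Recurrent 4 was thus high in muscle, airway secretory and stratified genes, in Pth and Chga, and in Tg. Recurrent 5 was high in the same genes except Tg (4.84). The list mean of 11 adipocyte genes was highest on recurrent 1, at 1.64, but only 5 of the 11 were highest there. On recurrent 1, 8 of 11 lay above their own mean, and on recurrent 5 it was 9 of 11. Car3 (14.25) and Lpl (13.12) were highest on recurrent 4 and Cidea (13.64) on recurrent 6. The fat hormone Adipoq was 10.72 on recurrent 1, 9.90 on recurrent 5 and 4.18 on recurrent 2.

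**Figure D3:**
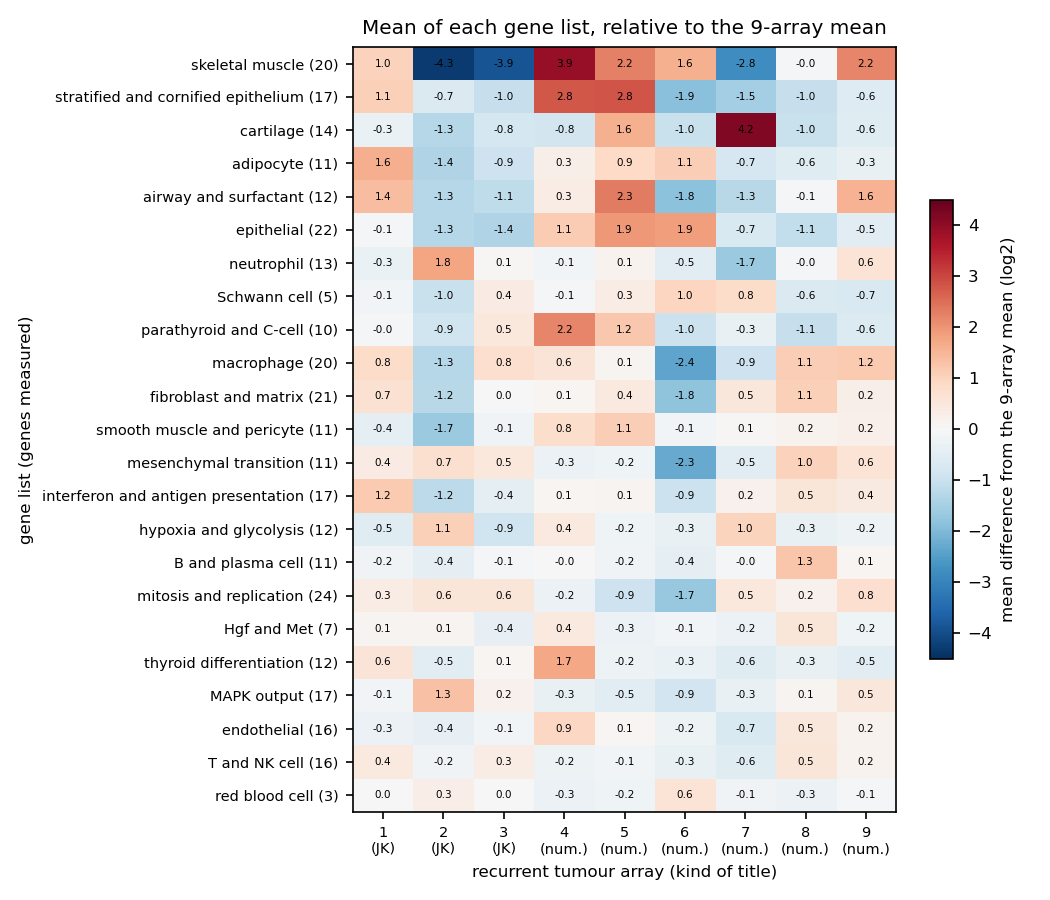
Mean over the measured genes of each of 23 lists (rows, with the number of genes) on each recurrent array (columns, with JK or a bare number, num., as the kind of title), as the difference from the 9-array mean of each gene (colour and printed value, log2). Muscle runs from -4.3 on recurrent 2 to 3.9 on 4, cartilage reaches 4.2 on 7, and macrophage and mesenchymal lists are lowest on 6 at -2.4 and -2.3.

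Several epithelial genes were lowest on recurrent 2 or 3 and highest on recurrent 6. Epcam, an epithelial adhesion molecule, was 9.10, 6.48, 6.43, 11.60, 11.38, 13.26, 11.57, 8.16 and 9.09 on recurrent 1 to 9, against 10.57 to 12.81 in ATC and 12.65 to 12.89 in normal pools. E-cadherin, Cdh1, ran from 6.37 on recurrent 2 and 7.89 on 3 to 12.35 on 6. Esrp1, a splicing factor of epithelial cells, was 3.88 on recurrent 3, 4.77 on 2 and 12.18 on 6. Cldn7, a tight junction claudin, was 4.40 on recurrent 2, 4.71 on 3 and 12.15 on 6. Dsp, a desmosome protein with the highest SD of the 22 genes in the epithelial list, had another pattern. It was 11.14 on recurrent 2, 4.72 on 3, 6.16 on 6 and 13.52 on 5. Of 22 epithelial genes, 13 were highest on recurrent 6 and 10 were lowest on recurrent 2 or 3. The simple-epithelium keratins were not low on recurrent 2 and 3. Krt8 was 13.08, 13.77 and 13.76 and Krt18 was 12.74, 13.04 and 12.87 on recurrent 2, 3 and 6, while Krt18 was 9.11 to 10.47 on recurrent 1, 4, 5, 7 and 8.

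Mesenchymal genes stood apart on recurrent 6. All 11 measured mesenchymal transition genes were below their own mean there and 10 of 11 were lowest there, with a list mean of -2.26 against -0.47 to 1.03 on the other arrays. Zeb1, a repressor of epithelial genes, was 8.48 on recurrent 6 and 9.49 to 11.37 elsewhere. The intermediate filament vimentin, Vim, was 11.80 on recurrent 6 and 12.76 to 13.90 elsewhere. Other probe sets of Zeb1 varied less, and its SD dropped to 0.53 with the mean of its probe sets.

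Matrix genes were lowest on recurrent 2 and 6. Col1a1, the chain of fibrillar collagen I, was 9.61 and 9.42 there and 11.26 to 13.23 on the other 7 arrays, against 12.01 to 12.93 in ATC. Postn, a matrix protein of activated fibroblasts, was 10.50 and 11.28 on recurrent 2 and 6 and 13.22 to 14.54 elsewhere. Lox, which cross-links collagen, was 8.32 on recurrent 2 and 13.36 on recurrent 8. Decorin, Dcn, departed from this order, with 9.92 on recurrent 7 and 12.02 to 14.25 elsewhere. Mgp, a matrix inhibitor of calcification, was 6.56 on recurrent 2 and 12.77 to 14.38 on the other 8 arrays. Of 21 matrix genes, 13 were lowest on recurrent 6, 7 on recurrent 2 and 1 on recurrent 7, and 10 were highest on recurrent 8. An SD of 2 was reached by 0 of the 21 genes, and their median SD was 1.26 against 0.517 for all genes.

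Leukocyte genes differed by kind of cell and by tumour. Ptprc, the pan-leukocyte protein CD45, was 6.92 on recurrent 6, 8.57 on 7 and 9.55 to 11.11 elsewhere. Csf1r, the receptor that maintains macrophages, was 8.80 on recurrent 2, 9.07 on 6, 10.44 on 7 and 11.65 to 12.55 on the other 6. The macrophage list had a mean of -2.37 on recurrent 6 and -1.29 on recurrent 2, and 5 of its 20 genes were among the 458 called more variable than in ATC on the log2 scale (3.7% of all genes were). The lysosomal Cd68 was 6.80 on recurrent 6 and 9.24 to 10.95 elsewhere. Cd163, a scavenger receptor of resident macrophages, ran from 5.23 on recurrent 6 and 5.48 on 7 to 10.30 on recurrent 9. The class II antigen chain H2-Aa was 8.01 on recurrent 2, 9.13 on 6 and 9.68 on 3, and 11.12 to 12.62 on the other 6 arrays.

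Most neutrophil genes were highest on recurrent 2. S100a8, an alarmin of neutrophils, was 13.91 there, 5.70 on recurrent 7 and 7.43 to 11.06 elsewhere. S100a9, its partner, was 13.72 on recurrent 2 and 5.07 to 9.88 elsewhere. The chemokine Cxcl2 was 12.02 on recurrent 2 and at most 8.86 on the others. Interleukin 1 beta, Il1b, was 11.40 on recurrent 2 and at most 9.60 on the others. Ngp, a granule protein of immature neutrophils, was 8.70 on recurrent 2 and 4.75 to 5.29 elsewhere. The mean of 13 neutrophil genes was 1.78 on recurrent 2 and -1.67 on recurrent 7, and 9 of 13 were highest on recurrent 2. Ltf, the gene of this list with the highest SD (3.12), was not among them. It was 7.91 on recurrent 2, 11.85 to 14.05 on recurrent 1, 4, 5, 6 and 9, and 5.19 to 9.07 on the rest. S100a8 and S100a9 are also made by stressed keratinocytes. On recurrent 2 the keratinocyte genes Sprr2h (10.69), Sprr1b (9.76) and Sprr1a (11.86) were high, whereas Krt4 was 6.12 and Krt5 was 6.17, and the part of such cells was not tested.

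Several other myeloid genes were, among the recurrent tumours, highest on recurrent 3. Chil3, a chitinase-like product of alternatively activated macrophages, was 13.53 on recurrent 3, 11.92 on 9 and 10.85 on 8, and 3.92 to 8.81 elsewhere. Ear3, an eosinophil-associated ribonuclease, was 13.22 on recurrent 3, 11.11 on 9 and 9.51 on 8. The ribonucleases Ang3 and Rnase2a were 11.59 and 9.02 on recurrent 3 and at most 7.89 and 5.44 elsewhere. ATC had Rnase2a at 7.75 to 9.79. These ribonucleases belong to families of similar sequence. Arginase, Arg1, was 13.00 on recurrent 4, 12.40 on 9, 11.63 on 3 and 5.45 on 6.

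Of 11 B and plasma cell genes, 6 were highest on recurrent 8. Ms4a1, the B cell protein CD20, was 8.14 there and 4.08 to 5.40 elsewhere. Pou2af1, a B cell transcriptional coactivator, was 7.85 there and 3.59 to 4.48 elsewhere. Glycam1, a ligand for L-selectin on lymph node vessels, was 11.38 there and 4.38 to 5.61 elsewhere. Other members differed, with the antibody joining chain Jchain at 10.65 on recurrent 9, 10.09 on 5 and 8.75 on 8, and the heavy chain Ighm at 10.14 on recurrent 8 and 9.78 on 7. The list mean was 1.26 on recurrent 8 and at most 0.10 on the other arrays. The T and NK cell list had means of -0.56 to 0.53 and a median SD of 0.43, below that of all genes. Of its 16 genes, 14 lay above their own mean on recurrent 1, 12 on 3 and on 8, 1 on 5 and 0 on 7. Its most variable genes were Klrd1 (4.46 to 7.46) and Cd3g (4.33 to 7.75).

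Proliferation genes were lowest on recurrent 6 and 5. Mki67, a protein of cycling cells, was 10.98, 10.26, 12.37, 10.27, 9.10, 7.91, 11.08, 10.46 and 10.95 on recurrent 1 to 9, and 9.63 to 10.27 in ATC. Top2a, a topoisomerase of S and G2 phase, was 6.95 on recurrent 6 and 9.34 to 11.42 elsewhere. Of 24 mitosis and replication genes, 19 were lowest on recurrent 6 and 10 were highest on recurrent 3. Pcna, the replication clamp, did not follow, with 12.04 on recurrent 6 and 11.17 on recurrent 3. MAPK output genes, which ERK signalling induces, had a list mean of 1.33 on recurrent 2 and -0.86 on recurrent 6. Dusp6, an ERK phosphatase, ranged only from 9.97 on recurrent 6 to 11.84 on recurrent 9. Fosl1, an AP-1 subunit downstream of ERK, was 10.39 on recurrent 2, 8.93 to 9.46 on recurrent 1, 3, 8 and 9, and 5.59 to 7.55 on recurrent 4 to 7.

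Some genes had a single outlying tumour. A spike was counted where the highest or lowest of the 9 arrays lay at least 3 log2 units (8-fold on the linear scale) beyond the next. There were 188 upward (1.52% of genes) and 22 downward spikes (0.178%). Recurrent 6 held 77 of the upward ones, recurrent 7 held 50, recurrent 5 held 26 and recurrent 2 held 22, against 0 to 8 on the other arrays. Of the downward ones, recurrent 6 held 13 and recurrent 2 held 7. Without recurrent 6 the upward count was 123, and without recurrent 7 the downward count was 42.

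**Figure D4:**
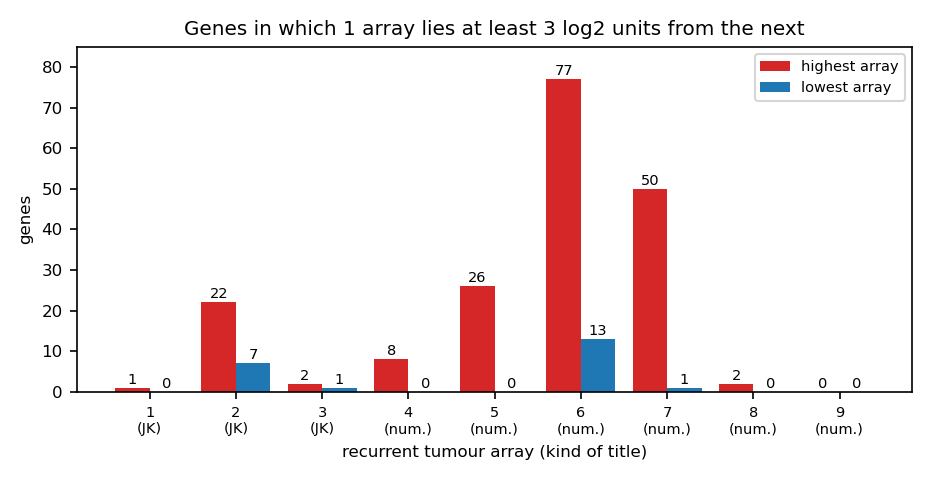
Number of genes (vertical axis) for which a recurrent array (horizontal axis, with JK or a bare number, num., as the kind of title) is the highest (red) or the lowest (blue) and lies at least 3 log2 units from the next array. Recurrent 6 has 77 upward and 13 downward genes, recurrent 7 has 50 and 1, and recurrent 9 has 0 of either.

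The 5 largest upward spikes of recurrent 6 were Mogat1, Scd3, Aadac, Cyp2b19 and Elovl3, several of which act on lipids. Mogat1, an acyltransferase of glyceride synthesis, was 14.26 there and 4.02 to 4.71 on the other 8 arrays. Scd3, a stearoyl-CoA desaturase known from sebaceous glands, was 14.66 there and 4.52 to 5.32 elsewhere. Elovl3, which elongates very long fatty acids, was 13.99 there and 4.15 to 7.60 elsewhere. Aadac, a lipid esterase, was 13.77 there and at most 5.16 elsewhere, and the keratinocyte cytochrome Cyp2b19 was 12.46 there and at most 4.79 elsewhere. Fatty acid synthase, Fasn, was 13.68 on recurrent 6 and 9.24 to 10.41 elsewhere. Mc5r, a melanocortin receptor of exocrine glands, was 9.44 there and 4.47 to 5.16 elsewhere. Pparg, a nuclear receptor of lipid-storing cells, was 10.89 on recurrent 6, 9.34 on 3 and 5.49 to 6.33 on the other 7. Cidea, a lipid droplet protein, was 13.64 on recurrent 6 and 4.99 to 9.76 elsewhere, whereas the adipocyte hormone Adipoq was only 6.37 on recurrent 6. Krt79, a keratin of hair follicle and sebaceous duct, was 12.22 on recurrent 6, 9.12 on 4 and 8.38 on 7. Not all genes of lipid synthesis were high there, since the desaturases Fads1 and Fads3 were 6.92 and 6.84 on recurrent 6 and 8.90 to 9.57 and 7.95 to 10.03 elsewhere. The highest level of Mogat1 in the other 3 groups was 6.62, and of Scd3 5.96.

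Sox2, Hmga2 and Prkg2 were lower on recurrent 6 than on each of the other 8 tumours. Sox2, a stem cell and airway transcription factor, was 3.65 there and 8.58 to 11.31 elsewhere, against 9.01 to 11.26 in ATC and 4.05 to 6.42 in normal pools. Hmga2, a fetal chromatin protein, was 4.66 there and 8.21 to 12.87 elsewhere, against 11.56 to 12.76 in ATC and 6.90 to 8.24 in normal pools. Recurrent 4 (8.21) and 5 (8.25) were thus near the top of the normal range of Hmga2 and below every ATC array. Prkg2, a cyclic GMP-dependent kinase that was 12.71 to 13.39 in ATC, was 5.22 on recurrent 6, 12.81 on recurrent 2 and 7.77 to 10.99 on the other 7. On recurrent 6 the epithelial list mean was 1.88 and the muscle list mean 1.60, while matrix (-1.81), macrophage (-2.37) and mitosis (-1.69) were low.

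Recurrent 7 was marked by hedgehog targets and cartilage genes. Hedgehog ligands release the GLI transcription factors from repression, and Gli1, Ptch1 and Hhip are induced by the pathway itself. Gli1 was 12.54 on recurrent 7 and 5.57 to 6.19 on the other 8 arrays. Ptch1, the hedgehog receptor, was 13.94 there and 8.58 to 9.80 elsewhere. Hhip, a hedgehog-binding inhibitor, was 11.76 there and 4.14 to 5.07 elsewhere. With the mean of the probe sets of Ptch1 its SD dropped to 1.02. In the other 3 groups Gli1 stayed at or below 6.39 and Hhip at or below 4.69. Cartilage genes were highest on recurrent 7 in 13 of 14 cases, with a list mean of 4.18, and 7 of 14 were called more variable than in ATC on the log2 scale of deviations (3.7% of all genes were). Col2a1, the collagen of cartilage, was 13.47 on recurrent 7, 10.22 on 5 and 5.17 to 7.41 elsewhere. Col9a1 was 13.22 on recurrent 7, 9.55 on 5 and 4.61 to 6.22 elsewhere, and in PTC it was 11.64 to 12.47. The proteoglycan Acan was 12.78 on recurrent 7 and 6.19 to 10.64 elsewhere. Bone-related genes were high too, with the transcription factor Dlx5 at 11.09 against at most 5.22 and the mineralised matrix protein Ibsp at 10.77 against at most 5.62.

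Other genes with their highest level on recurrent 7, chosen after their values were seen, include fetal or imprinted ones. Igf2, an imprinted fetal growth factor, was 14.73 there and 7.43 to 9.79 on the others. Gpc3, a glypican of fetal tissues, was 13.63 there and 5.29 to 7.97 elsewhere. Peg3 and Mest, both imprinted, were 13.13 and 12.64 there and at most 10.82 and 8.93 elsewhere. The fetal protein Afp was not among them, at 5.96 on recurrent 7 and up to 10.45 on recurrent 3. Wif1, a secreted Wnt inhibitor, was 12.14 on recurrent 7, 9.77 on 5 and 3.55 to 7.23 elsewhere.

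Recurrent 2 was the tumour with Braf at the level of ATC. Braf was 11.14 on recurrent 2 and 5.62 to 7.14 on the other 8 arrays, against 10.29 to 11.98 in ATC. The sources used here do not give whether this probe set detects an engineered allele. The placental prolactin family members Prl8a9 and Prl6a1 were 9.83 and 9.38 on recurrent 2 and at most 4.36 and 4.95 on the others, and reached 8.34 and 8.70 in ATC. This family holds many similar genes, so the member is uncertain. Ogn, a small matrix proteoglycan, was 4.61 on recurrent 2 and 8.28 to 13.49 elsewhere.

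Several genes were high in a few tumours without following any of these sets. Cck, the peptide cholecystokinin, was 12.49 on recurrent 2 and 10.27 on 9 and 4.01 to 5.27 on the others. Nppb, a natriuretic peptide, was 12.62, 10.13 and 11.00 on recurrent 2, 3 and 9, 6.92 on 8 and 4.74 to 5.27 on the other 5. Rpl39l, a testis-type ribosomal protein, was 12.68, 12.51 and 10.37 on recurrent 2, 7 and 8 and 5.13 to 6.34 elsewhere. The platelet chemokine Ppbp was 13.09 on recurrent 4 and 4.27 to 8.03 elsewhere. Dcpp3, a salivary secretory protein, was 12.78 on recurrent 1 and 5.95 to 7.80 elsewhere, and reached 13.44 in PTC.

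Genes next to each other on a chromosome were set in order, and for each array the difference from the median of the other 8 was followed with a running median over 9 genes. Runs of at least 1 log2 unit numbered 243 over the 9 arrays, from 6 on recurrent 1 and on 8 to 68 on recurrent 6. The size of a run counts all genes in its windows, flanking genes included. Its named ends are the outermost genes beyond 1. Many are clusters of related genes, such as the Lce and Sprr genes on recurrent 5 (21 of 31 genes beyond 1) and the myosin cluster on recurrent 2, 3 and 7. Other runs joined genes of no common family. On recurrent 2, a run of 29 genes with its flanks held 19 that were higher by at least 1, from Rad18 to Atg7. Most measured genes between these ends were among the 19, whose median difference was 2.77. They include Mtmr14, a lipid phosphatase (11.57, against 7.88 to 8.81 on the others), the chromatin reader Brpf1 (13.08, against 8.97 to 9.67), the kinase Camk1 (12.87, against 7.95 to 8.91), Tada3 of histone acetylase complexes (12.07, against 7.62 to 8.39) and the ubiquitin ligase subunit Vhl (7.84, against 5.29 to 6.22).

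On recurrent 7, a run of 28 genes with its flanks held 18 that were higher by at least 1, from Ctdsp2 to Inhbe, with a median difference of 2.67. Between these ends only Agap2 (0.17) and Kif5a (0.97) were not. The run holds both Gli1 and Cdk4. Cdk4, a cyclin D kinase that drives entry into S phase, was 13.56 on recurrent 7 and 9.63 to 11.53 elsewhere. Mettl1, a tRNA methyltransferase, was 10.80 there and 6.62 to 8.14 elsewhere. Avil, an actin-binding protein, was 9.57 on recurrent 7, but 8.84 on recurrent 2. A shorter run on recurrent 2 covered 15 genes with its flanks, of which 7, from Sqle to Asap1, were beyond 1. It holds Myc, a growth transcription factor, at 11.99 against 7.89 to 10.53 on the others, and its neighbour Pvt1 at 11.85 against 6.62 to 8.52. DNA was not measured, and copy number was not tested.

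An upward run around Met was seen on recurrent 1 and 8. Met was 8.10 and 8.06 there, 7.15 on recurrent 6 and 4.73 to 6.21 on the other 6, against 5.10 to 6.15 in ATC. On recurrent 1 the run covered 15 genes with its flanks, of which 7, from Gpr85 to Capza2, were beyond 1. On recurrent 8 it covered 14 with its flanks, of which 6, from Tes to Wnt2, were beyond 1. Between Tes and Wnt2, St7 (-0.32) was the only measured gene that was not. Downward runs lay there on recurrent 7, where Met was 4.73 and 5 genes from Tfec to Wnt2 were beyond 1 (median -2.29), and on recurrent 6 from Gpr85 to Cav1 (median -1.63), without Met. Tes, a focal adhesion protein, was 12.93 and 13.04 on recurrent 1 and 8 and 8.83 to 11.41 elsewhere. Caveolin 1, Cav1, was 12.94 and 13.10 there and 9.36 to 11.95 elsewhere. Capza2, which caps actin filaments, was 13.34 and 13.24 there and 11.25 to 11.99 elsewhere. Hgf was 8.08 on recurrent 8, the other Met-high tumour 1 was at 6.41, and the remaining 7 were at 5.37 to 6.73, against 5.25 to 5.75 in ATC.

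**Figure D5:**
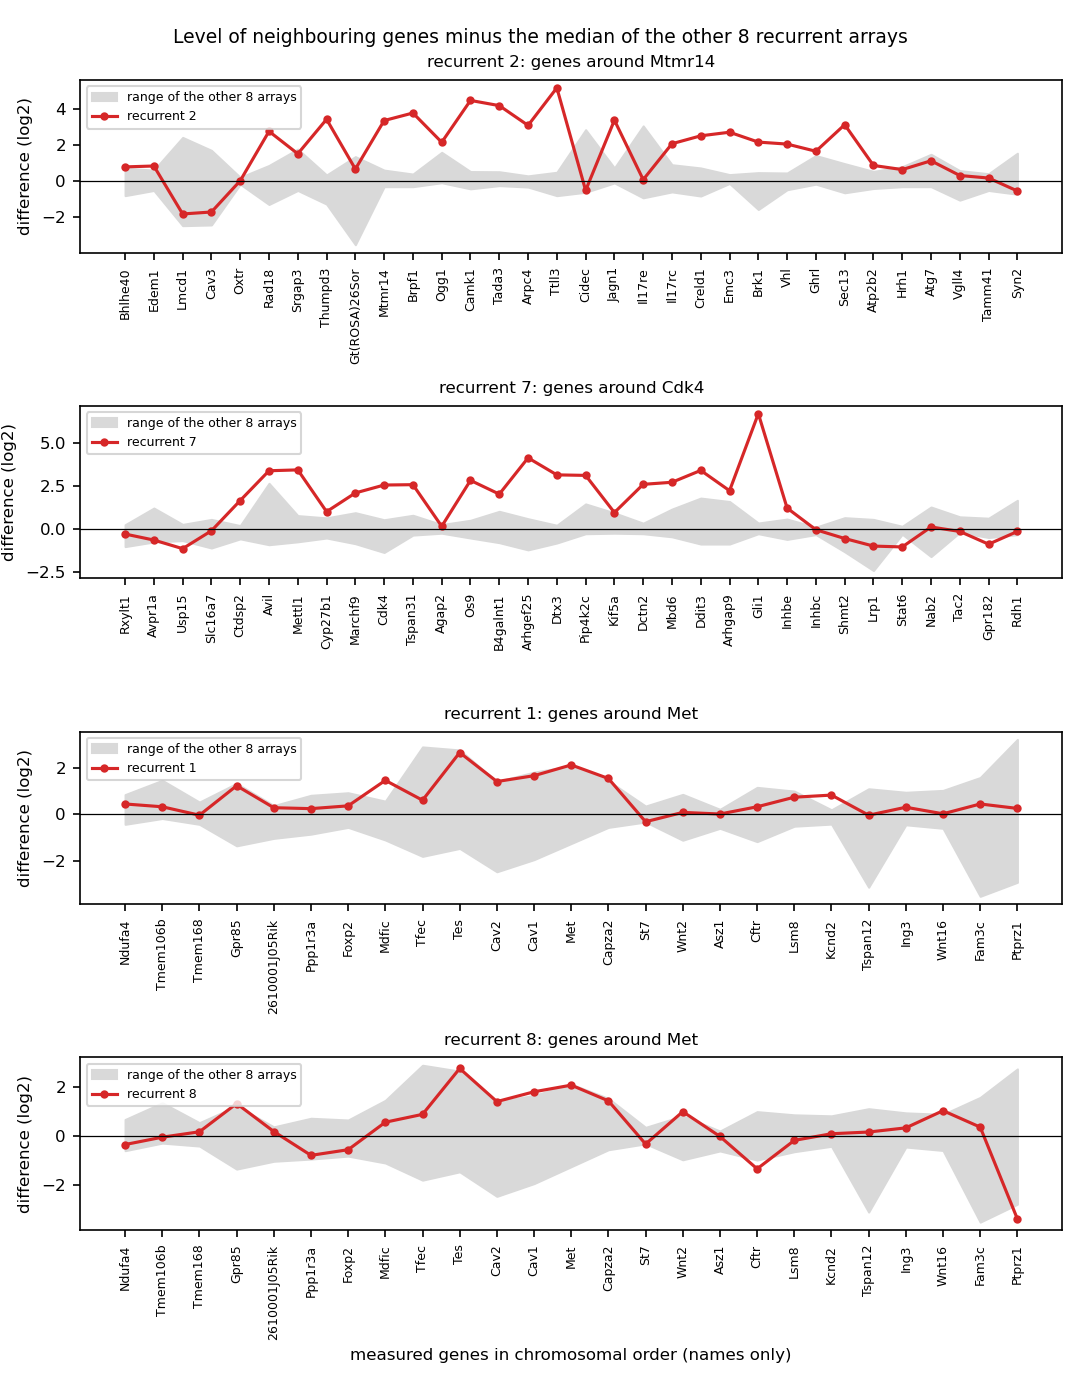
Level of each measured gene minus the median of the other 8 recurrent arrays (vertical axis, log2) along neighbouring genes in chromosomal order (horizontal axis, names only), for recurrent 2 around Mtmr14, recurrent 7 around Cdk4, and recurrent 1 and 8 around Met. The red line is the named array and the grey band the range of the other 8 arrays, which the line exceeds at 20 of 32, 19 of 32, 5 of 25 and 5 of 25 genes, and around Met the bands include the other of recurrent 1 and 8.

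The tumours also differed in sex-linked transcripts. Xist, the RNA of the inactive X chromosome, was 5.59 and 6.19 on recurrent 5 and 6 and 12.05 to 13.63 on the other 7 arrays. Eif2s3y, a gene of the Y chromosome, was 10.09 and 10.07 on recurrent 5 and 6 and 3.16 to 3.35 on the others. All 5 ATC arrays had Xist at 12.70 to 13.08 and Eif2s3y at 3.03 to 3.40. Kdm5d, another gene of the Y chromosome, was 8.09 on recurrent 5 but 4.18 on recurrent 6, and 3.16 to 3.67 on the others. Recurrent 6, the most distant tumour, and recurrent 5 thus shared the pattern of Xist and Eif2s3y but not the level of Kdm5d. The part of this pattern in their other differences was not tested.

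Principal components of the 9 arrays, with every gene centred, followed the same blocks. Component 1 took 32.4% of the variance and ran from recurrent 2 (-76.0) and 3 (-61.7) to recurrent 5 (65.8) and 6 (70.1). Its leading genes were Myh1, Myot and Tnnc2 at one end and Nppb and Hmga2 among those at the other. Component 2 (21.6%) set recurrent 6 (-95.5) apart, with Mogat1 and Scd3 at its end and Bpifa1 and Scgb1a1 at the opposite one. Component 3 (15.8%) set recurrent 7 apart (93.3), led by Gpc3 and Col9a1. Component 4 (10.4%) separated recurrent 2 (54.1) from recurrent 3 (-62.6), with Cck at one end and Ear3 and Ang3 at the other.

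The kind of title overlapped with some of these blocks, since recurrent 2 and 3 are 2 of the 3 JK arrays. In limma, JK-titled against number-titled recurrent arrays gave 0 genes called higher and 0 lower of 12394 (0.0% each), with 1791 genes (14.5%) at an unadjusted p under 0.05. A fit of all 24 arrays, which takes its spread mostly from the other groups, called 1367 genes (11.0%) higher and 683 (5.51%) lower. In simulated data the main test recovered 10% of 2-fold and 56% of 4-fold shifts. Myh1 was 5.51 ± 1.83 (SE) lower on the JK arrays (limma adjusted p = 0.291), and Epcam was 3.51 ± 1.11 (SE) lower (limma adjusted p = 0.285). Recurrent 1, also a JK array, had Myh1 at 12.44 and Epcam at 9.10, and recurrent 7, a number-titled array, had Myh1 at 8.76.

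Correlations between 6 pairs of genes over the 9 arrays were tested with exact permutations, two-sided, and 0 of 6 passed an adjusted p of 0.05. Epcam and Ptprc had r = -0.58 (exact p = 0.0941, adjusted 0.275) and Spearman rho = -0.37 (exact p = 0.336, adjusted 0.504). Without recurrent 3 and 6, the arrays farthest from the median of Epcam, r was -0.49 (exact p = 0.248), and within the 6 number-titled arrays it was -0.90 (exact p = 0.0278, adjusted 0.167). Met and Hgf had r = 0.58 (exact p = 0.0957, adjusted 0.275) and rho = 0.52 (exact p = 0.162, adjusted 0.504). Without recurrent 1 and 8 their r was -0.00 (exact p = 0.992), so the relation rests on these 2 arrays. Epcam and Col1a1 had r = -0.22 and rho = -0.37, Col1a1 and Ptprc 0.48 and 0.18, Braf and Dusp6 0.48 and 0.38, and Dusp6 and Mki67 0.35 and 0.18, with adjusted exact p of 0.275 to 0.561 for r and 0.504 to 0.644 for rho. Without recurrent 6, r was 0.19 for Epcam and Col1a1, -0.01 for Col1a1 and Ptprc, -0.28 for Epcam and Ptprc and -0.07 for Dusp6 and Mki67. Without recurrent 2, r was -0.70 for Epcam and Col1a1.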

How the data were processed

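RNA of 24 mouse thyroid samples was measured on Affymetrix arrays. The deposited log2 values of 22690 probe sets come, per the submitters' processing notes, from the authors' use of RMA and Partek, with versions not given in the sources used here. RMA brings arrays to a common distribution, so a shift of all genes would not be seen. Names came from the platform annotation, which has 1 gene symbol for 20393 probe sets, several for 691 and none for 1606, updated with RefSeq for GRCm38.p6 (20364 matched), which also gave gene order. Groups came from the tissue label, and replicate numbers follow record order and pair nothing.

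Spread was compared with exact permutation tests (SciPy 1.17.1, Python 3.11.15), and genes with limma 3.58.1 in R 4.3.3 (with version 1.17.8 of the data.table package), Benjamini-Hochberg adjusted and called under 0.05. Both limma steps were tested on simulated data with 200 changed genes. Tables were handled with pandas 2.3.3 and NumPy 2.4.6, and figures drawn with matplotlib 3.10.9. Genes named are the 40 with the highest SD, up to 4 of each of 23 lists (322 of 357 entries measured), the largest spikes (up to 5 upward and 2 downward per array), genes in runs and 10 fixed genes. The text names a part of them, and Krt5, Krt8, Krt18, Zeb1, Vim, Postn, Lox, Ogn, Ear3, Pparg, Krt79, Hmga2, Ptch1, Igf2, Gpc3, Acan, Ibsp, Cck, Nppb, Rpl39l, Eif2s3y, Fasn, Mc5r, Peg3, Mest, Pax8, Nkx2-1, Wif1, Pcna, Cd68, Car9 and Pecam1 were chosen after their values were seen. Tff1 is named as the only call. The tumours, the lists and the tests were chosen with earlier results of these data known.

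Alternatives were means of probe sets, leaving out dim genes, a repeated quantile normalization, arrays centred and scaled, each kind of title, other measures of spread, and leaving out each array.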

Additional observations from a re-analysis of the deposited data

Results flagged for a closer look

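Levels on 1 of the 9 recurrent arrays lay far from the other 8, by the size of the gap relative to the whole range (Dixon's criterion). Chance flags about 1 in 20 groups, and many of these genes were named because they spike, so their number is no test. On recurrent 6 these were Mogat1 (14.26), Scd3 (14.66), Elovl3 (13.99), Aadac (13.77), Cyp2b19 (12.46), Fasn (13.68), Mc5r (9.44) and, at the low end, Sox2 (3.65), Top2a (6.95) and Cd68 (6.80). On recurrent 7 they were Gli1 (12.54), Hhip (11.76), Ptch1 (13.94), Igf2 (14.73), Gpc3 (13.63), Mest (12.64), Dlx5 (11.09), Ibsp (10.77), Cdk4 (13.56) and Mettl1 (10.80). On recurrent 2 they were Braf (11.14), Brpf1 (13.08), Camk1 (12.87), Mtmr14 (11.57), Tada3 (12.07), Vhl (7.84), Pvt1 (11.85), Ngp (8.70), Prl8a9 (9.83), Prl6a1 (9.38) and, at the low end, Mgp (6.56). On recurrent 4 they were Krt16 (11.34), Dio1 (9.38), Grp (9.47), Pax8 (7.70) and Ppbp (13.09). On recurrent 8 they were Ms4a1 (8.14), Pou2af1 (7.85), Glycam1 (11.38) and Hgf (8.08). Rnase2a on recurrent 3 (9.02) and Dcpp3 on recurrent 1 (12.78) complete the genes.

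List means set apart in the same way were those of B and plasma cells on recurrent 8 (1.26), thyroid differentiation on recurrent 4 (1.74) and mesenchymal transition on recurrent 6 (-2.26). Among whole arrays, normal pool 5 lay 0.48 from its group mean, and the SD over probe sets of recurrent 3 was 2.23, the lowest of the 9.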

How the results depend on the processing

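The spread of recurrent arrays stayed above that of ATC, PTC and normal pools with every alternative run, by 0.294 to 0.385, 0.516 to 0.607 and 0.47 to 0.562 when an array was left out. No paired analysis was possible because replicate numbers are not given in the labels. The limma count of more variable genes was 458 on log2 of the deviations and 0 to 1 with an array left out. The count of less variable genes was 13 on that scale, 0 with number-titled arrays, deviations from the median or a trended robust spread, and 0 to 2 with an array left out. The title counts were 1367 and 683 with all 24 arrays in the fit, and 0 to 1 higher and 0 to 0 lower with an array left out. Ranked by median absolute deviation, 12 of the 40 most variable genes were kept, and 29 to 37 with an array left out. Downward spikes numbered 12 with means of probe sets and 22 to 42 with an array left out (42 without recurrent 7, 36 without recurrent 3), and upward ones 123 to 223 (123 without recurrent 6). Component 1 took 32.1% to 38.7% with an array left out. The cause of these shifts was not tested. The SD moved with means of probe sets for Zeb1 (0.53) and Ptch1 (1.02). With 9 tumours, 3 of them JK-titled, the number of arrays limits the precision, and log2 levels near the top or bottom of the scale are compressed.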

Other observations

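All 16 measured endothelial genes lay above their own mean on recurrent 4, and 11 of 16 were highest there, with a list mean of 0.93. Pecam1, an adhesion molecule of vessel walls, was 9.17 on recurrent 4 and 6.99 to 8.53 on the other arrays. On recurrent 8, 14 of 16 lay above their mean (list mean 0.52). On recurrent 7, 1 of 16 was above its mean and 8 of 16 were lowest. Smooth muscle and pericyte genes were lowest on recurrent 2 in 8 of 11 cases, with a list mean of -1.67, and 10 of 11 lay above their mean on recurrent 4 (0.80).

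Hypoxia and glycolysis genes were above their own mean in 11 of 12 cases on recurrent 2 and on recurrent 7, with list means of 1.06 and 0.99, and in 2 of 12 on recurrent 3 (-0.88). Car9, a carbonic anhydrase that low oxygen induces, departed from this, at 6.95 on recurrent 3 and 6.93 on recurrent 6 and 4.87 to 5.83 elsewhere. Interferon and antigen presentation genes were above their mean in 16 of 17 cases on recurrent 1 (list mean 1.18) and in 2 of 17 on recurrent 2 (-1.18). The class II chaperone Cd74 was 7.76 on recurrent 2, 8.25 on 6 and 12.01 on recurrent 9. These list means are descriptions with no test.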
